A study of Mus musculus with 10 samples.

Results

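Wildtype (WT) AB17 hepatocytes had 1347 stretches of chromosome that carried closely spaced summits of H3K27me3, the histone mark that Polycomb repressive complex PRC2 deposits. They were chosen by the WT H3K27me3 summits themselves. Autosomal summits with gaps of at most 3 kb were chained, and chains of 10 or more summits were kept. This left 1347 of 40435 chains, single summits included, holding 17374 of the 108777 autosomal WT summits (16%). The chains spanned 24.3 Mb in all, 1.01% of the autosomal sequence. Because the WT summits made the choice, the number, spacing and strength of WT summits in the chains are given as a description.

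AB17 is a line of primary mouse hepatocytes on the C57BL/6 background with both Arid1a alleles floxed (Arid1a fl/fl), immortalized with SV40 large T antigen and then given H-Ras. Both groups carry these alterations. WT cells received the adenovirus Ad-GFP and kept Arid1a, and knockout (KO) cells received Ad-Cre. Chromatin immunoprecipitation followed by sequencing gave 8 summit lists: H3K27me3 and H3K9me3 in both genotypes, and Arid1a, Brg1, Ctcf and Rad21 in WT cells. All came from 1 line with 1 library per group, so differences have no check over replicates and were not tested. The single line, the oncogenes and the adenovirus limit what the values say of liver tissue. RNA levels were not part of the lists, so the hepatocyte label was not checked by markers, and the loss of Arid1a was not checked either, since Arid1a was mapped in WT cells only. The 2 input samples served the peak calling and were not analysed here. The autosomal list of H3K27me3 held 108777 summits for WT and 85640 for KO, and the other lists held 70157 (Arid1a) to 141657 (WT H3K9me3). How deeply each library was read is unknown, and a deeper library gives a longer list.

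Polycomb complexes keep developmental genes silent in cells that do not use them. PRC2 methylates lysine 27 of histone H3, PRC1 reads the mark and compacts the chromatin, and in mammals both gather most strongly at unmethylated CpG islands near gene starts. The mark can also spread at low level over silent genes and the sequence between genes. SWI/SNF remodelling complexes, with the ATPase Brg1 and the subunit Arid1a, oppose Polycomb at many genes. Ctcf is a zinc finger protein that stops cohesin, the ring complex with the kleisin subunit Rad21, and both sit together at loop anchors and domain borders.

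The sequences under the chains were unlike those of the strongest H3K27me3 sites. Shown are 151 bases around the strongest WT summit of the chain with the most summits (in Gldn) and of the chains with the most summits in Fstl4 and Gabbr2, and then around the strongest WT summits outside the chains within 2 kb of a start of the listed genes, those of the homeobox genes Lmx1b, Tlx2 and Mnx1. All are read on the plus strand of mm10 (GRCm38, RefSeq), and capitals mark CpG dinucleotides, the target of DNA methylation and the building block of CpG islands.
Gldn chain, chr9:54300003-54300153: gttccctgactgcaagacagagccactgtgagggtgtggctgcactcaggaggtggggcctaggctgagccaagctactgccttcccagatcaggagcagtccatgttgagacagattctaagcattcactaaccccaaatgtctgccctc
Fstl4 chain, chr11:52913689-52913839: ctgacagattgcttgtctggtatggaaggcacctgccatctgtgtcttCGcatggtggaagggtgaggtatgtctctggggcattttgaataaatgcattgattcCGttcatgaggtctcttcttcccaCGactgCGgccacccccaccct
Gabbr2 chain, chr4:46811994-46812144: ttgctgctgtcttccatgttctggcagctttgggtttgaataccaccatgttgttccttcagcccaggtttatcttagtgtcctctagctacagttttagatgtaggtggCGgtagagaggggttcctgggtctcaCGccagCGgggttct
Lmx1b, outside, chr2:33640019-33640169: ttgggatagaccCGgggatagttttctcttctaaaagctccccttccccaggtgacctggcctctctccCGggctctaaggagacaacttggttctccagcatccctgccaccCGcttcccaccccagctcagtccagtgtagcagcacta
Tlx2, outside, chr6:83068988-83069138: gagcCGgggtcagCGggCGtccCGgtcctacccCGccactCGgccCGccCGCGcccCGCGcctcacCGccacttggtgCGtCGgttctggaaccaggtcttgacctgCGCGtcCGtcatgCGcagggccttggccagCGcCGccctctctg
Mnx1, outside, chr5:29477208-29477358: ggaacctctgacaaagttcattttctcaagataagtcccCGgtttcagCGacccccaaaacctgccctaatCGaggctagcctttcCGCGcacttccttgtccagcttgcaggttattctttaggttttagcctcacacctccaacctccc

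The strength of a summit is given as the −log10 q-value of its peak, where q is the false discovery rate that the peak caller assigned. The 3 chain summits held 0 (Gldn), 4 (Fstl4) and 3 (Gabbr2) CpG, at strengths of 5.47, 4.15 and 4.76. The 3 summits outside held 3 (Lmx1b), 20 (Tlx2) and 5 (Mnx1), at strengths of 50.7, 46.2 and 44.7. The single windows overlapped in CpG number. Among the 17374 WT summits in chains, the 501 bp around the summit held a median of 5 CpG, and 0.386% had over 50% GC with a CpG observed-to-expected ratio over 0.6, the usual measure of a CpG island. Among the 2431 summits outside chains whose strength reached 10, the median was 16 CpG, and 34.9% passed that measure. Strength differed between these sets, so summits were also compared within bands of strength. Of the summits with strengths of 5 to under 10, 0.614% of 1629 in chains and 5.35% of 8245 outside passed the measure, and the median was 6 CpG in both. Of those with 2.5 to under 5, 0.318% of 8499 in chains and 1.24% of 34585 outside passed it, with a median of 5 CpG in both. Whole chains had a median GC content of 46.3% (37.2 to 57.2%) against 41.9% for the autosomes. Their median CpG ratio, 0.197, was close to the autosomal 0.194. Repeats took a median of 23.5% of a chain, against 33.5% of the autosomes.

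The chains were long rather than strong. They held 10 to 34 WT summits (median 12) over 8609 to 53341 bp (median 16673 bp). Of the 1347 chains, 1047 had 10 to 14 summits, 229 had 15 to 19 and 71 had 20 or more. At the threshold, the 330 chains of 10 summits had a median span of 13588 bp and a KO to WT summit ratio of 0.578, and the 480 chains of 9 summits just outside it had 12218 bp and 0.578. The median strength within a chain was 2.84 over all chains (1.72 to 5.97). The highest value in a chain had a median of 5.47 and a range of 2.79 to 29.0.

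The strongest H3K27me3 summits lay elsewhere. The share of WT summits inside the chains was 16% for all summits and 18.4% for those whose strength reached 2.5. It was 13.7% at 5, 2.72% at 10 (68 of 2499) and 0.992% at 20 (6 of 605; 95% Clopper-Pearson interval 0.365 to 2.15%). The KO list, which the choice did not use, had the same order. Both lists give 1 summit per peak, so a strong site called as 1 wide peak cannot form a chain by itself. How far this shapes the order was not tested. The chains held 12.6% of all KO summits, 13.2% of those of at least 2.5, 8.79% at 5, 0.975% at 10 (17 of 1744) and 0 of 287 at 20, which allows up to 1.28%. Stronger summits lay nearer to genes, since 6.71% of all WT summits and 58.3% of those of at least 20 were within 2 kb of a coding start. In chains the share was 3.57%. Intervals here and below cover counting error only, and neighbouring summits are not independent. The label of large H3K27me3 domains fitted the chains in length, which the rule sets, and in density in the KO library. The chains held few of the strongest summits of either list. They are called chains below.

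**Figure D1:**
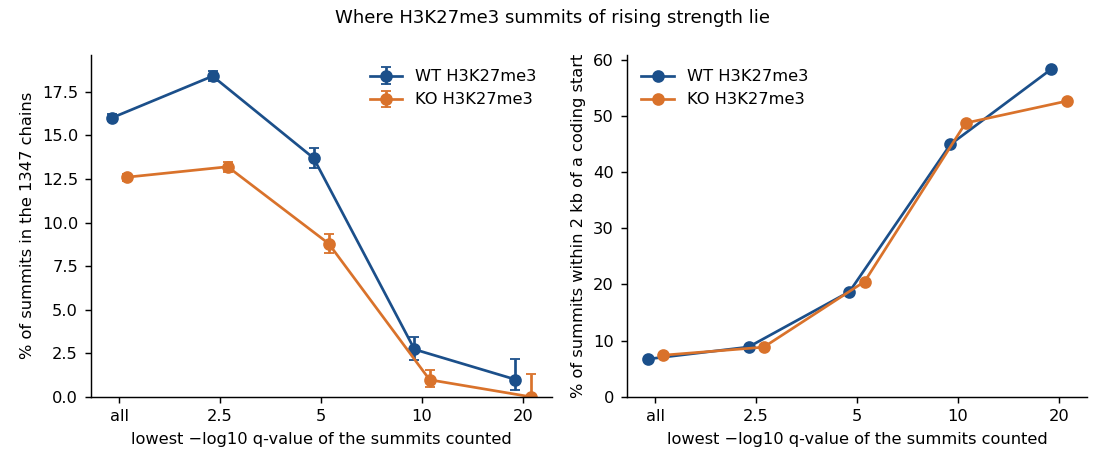
Left, percent of H3K27me3 summits that lie in the 1347 chains, by the lowest −log10 q-value counted (horizontal axis), for WT and KO cells, with 95% Clopper-Pearson intervals. Right, percent of the same summits within 2 kb of a coding start. Shares in chains are near 0 at 20 (0.992% in WT and 0% in KO), where 58.3% and 52.6% are near a start.

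The chains were spread unevenly over chromosomes. Chromosome 9 had 120 (0.990 per Mb) and chromosome 11 had 116 (0.977 per Mb), while chromosome 13 had 11 (0.0939 per Mb) and chromosome 14 had 23 (0.189 per Mb). All WT summits were also dense on chromosomes 9 and 11 (67.3 and 75.7 per Mb) and sparse on chromosomes 13 and 14 (15.5 and 24.5 per Mb). Chains also stood near each other. At gaps of at most 50 kb, 546 chains (40.5%) fell into 228 runs of 2 or more, and 18 runs had 4 or more. The run with the most chains covered 192215 bp of chromosome 9 in and beside Zbtb16, a zinc finger repressor, and Htr3a, a serotonin receptor, with 6 chains, 88 WT and 66 KO summits. A run of 5 chains lay in the major histocompatibility region of chromosome 17 over H2-Aa, H2-Eb1 and Btnl2 (67 WT and 51 KO summits). Another lay over the mucosal peptide genes Tff2 and Tff3 (59 and 36). These runs were picked for their number of chains after the values were seen.

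The chain with the most summits, chr9:54296339-54349679, held 34 WT and 33 KO summits and covered 82.2% of Gldn, which encodes gliomedin, an adhesion protein of the nodes of Ranvier. The next held 33 WT and 21 KO summits over Wfdc15a, Wfdc15b and Svs2, genes for secreted proteins of the seminal tract, with 0 summits of Ctcf, Rad21, Brg1 and Arid1a. Both genotypes thus filled these spans, the first almost equally. The third lay between genes near Neurl1b, with 29 WT and 15 KO summits. Chains of 28 WT summits lay in Ttll11 (20 KO), a tubulin-modifying enzyme gene, and in Myrip (17 KO), a linker of myosin and Rab27. Those of 27 lay in F830045P16Rik (19 KO) and in Iqsec1 (12 KO), an exchange factor for Arf GTPases. The other 5 of the 12 with the most summits lay over 1700021F07Rik (26 WT and 21 KO), over Zfp683 and Crybg2 (26 and 8), in Abcc6, a hepatic efflux transporter (26 and 14), in Galnt9, which starts O-glycans (25 and 21), and in Prom1, the stem cell antigen CD133 (25 and 19). KO counts in these 12 ranged from 8 to 33, and 9 of the 12 held no coding start.

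**Figure D2:**
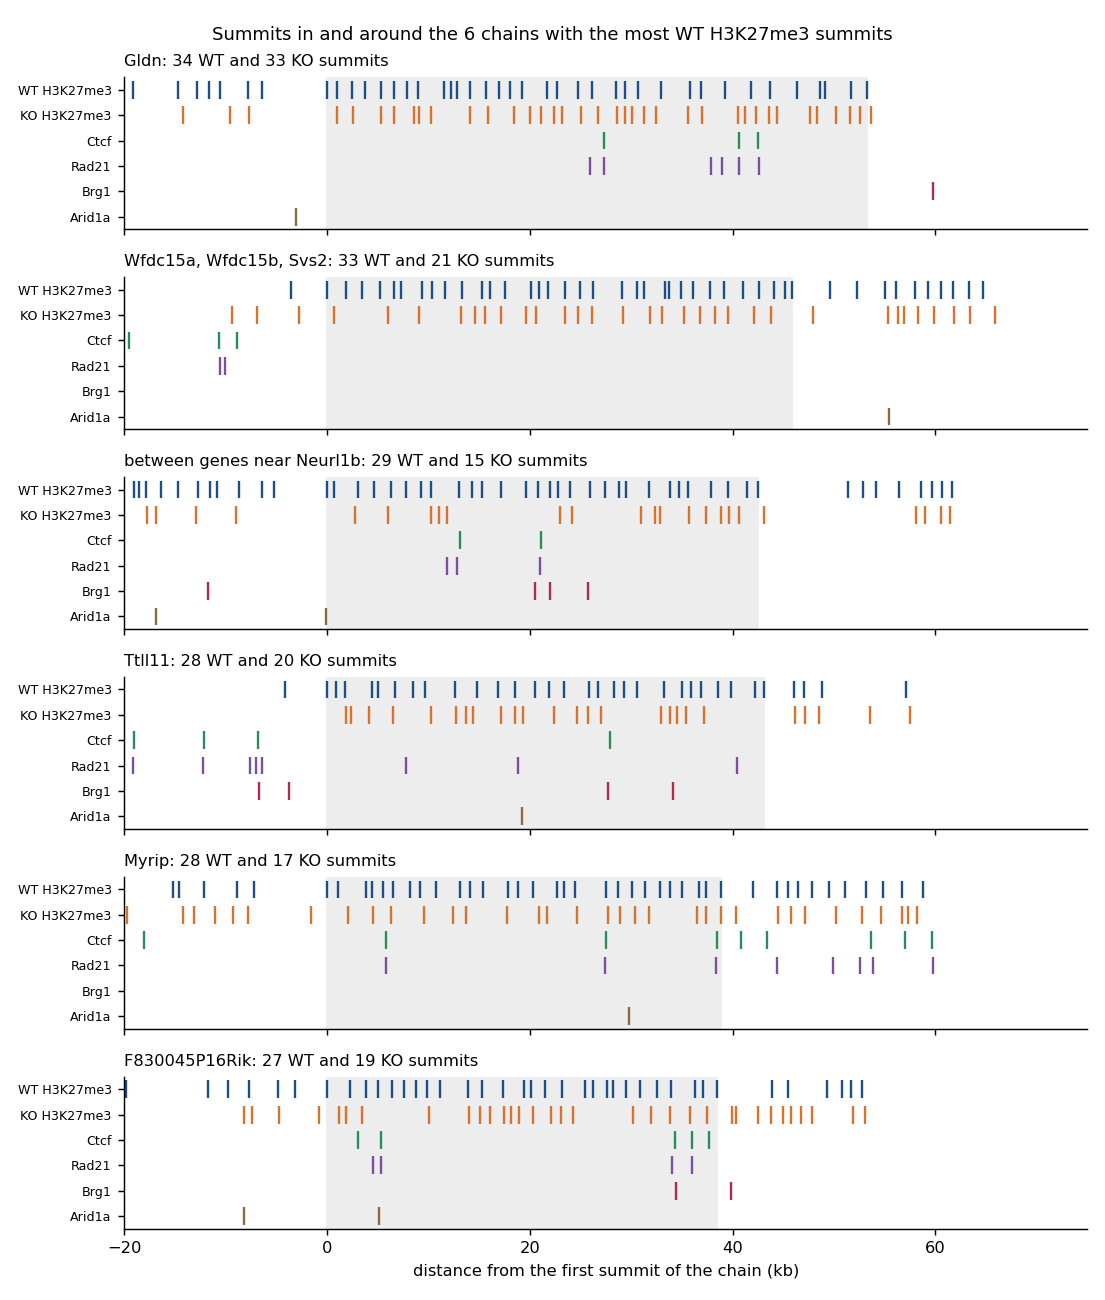
Positions of summits (ticks) of 6 lists along the 6 chains with the most WT H3K27me3 summits, in kb from the first summit of the chain, with 20 kb on each side. The grey block is the chain. KO summits number 15 to 33 per block, with gaps such as that from 11.8 to 23 kb in the block near Neurl1b. Ctcf, Rad21, Brg1 and Arid1a summits are fewer, and the block over Wfdc15a has none of them.

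The first question was how far H3K27me3 of KO cells fills the WT spans. KO cells had 10803 summits in them, 444 per Mb, which was 12.4 times the KO density over the autosomes. KO H3K27me3 was thus gathered in the same places. Per chain, KO cells had 0 to 33 summits (median 8). Bases within 500 bp of a summit made up 42.3% of the span in KO and 61.9% in WT cells, against 3.44% and 4.37% of the autosomes. Per chain the KO fill ranged from 0 to 78.8% (median 42.9%) and the WT fill from 43.7 to 89.3% (median 62.2%). Of the WT summits in chains, 68.2% had a KO summit within 1 kb, against 52.0% outside. Of all bases in the chains, 67.8% lay within 1 kb of a KO summit. The share of WT summits was thus near that of the span and shows no closer match of single summits.

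The KO to WT ratio of summits was 0.622 in the chains (0.607 to 0.637), against 0.787 over the autosomes and 0.842 in the zone 3 to 23 kb outside the edges. Spans picked for many WT summits have fewer KO summits by that choice, so the same was done with the genotypes exchanged. The KO list gave 802 chains with 10222 KO and 6909 WT summits, a WT to KO ratio of 0.676 where the autosomal value was 1.27. Each genotype thus had fewer summits than the other in the spans the other chose, so the lower KO count does not by itself measure a loss. With the WT list reduced to its 85640 strongest summits, equal in number to the KO list, the ratio in the rebuilt chains was 0.697 against 1.0 over the autosomes.

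At least 2-fold fewer KO than WT summits were found in 449 of 1347 chains (33.3%). The background was 63.4% of the 12396 chains of 3 to 9 WT summits. In such short chains a difference of few summits already reaches 2-fold, so these shares are not like for like. With the genotypes exchanged, 22.4% of the 802 KO chains had at least 2-fold fewer WT summits. No WT chain had at least 2-fold more KO summits, 29 had more KO than WT summits, and 41 had equal numbers. The ratio rose with the size of the chain, from 0.607 (0.589 to 0.625) at 10 to 14 summits through 0.643 (0.611 to 0.676) to 0.684 (0.633 to 0.739) at 20 or more. It also rose with strength. When chains were ranked by their median WT strength and split into 3 classes, the lowest class had 0.554 (0.531 to 0.579), the middle 0.622 (0.597 to 0.649) and the highest 0.689 (0.661 to 0.717). Size and strength are those of the WT summits that chose the chains and form the denominator. How far that choice shapes these trends was not tested. The ratio hardly moved with the other properties. It was 0.610 in chains with a coding start and 0.624 without, 0.622 in those touching a coding gene and 0.621 in those touching none, and 0.628 with and 0.617 without Ctcf in the span. Chains with Brg1 or Arid1a in the span had 0.597 (0.570 to 0.625), and those without had 0.631 (0.614 to 0.650). These 2 intervals overlap. The share of chains with at least 2-fold fewer KO summits differed more. It was 41.8% with a coding start and 32.1% without, and 35.3% touching a coding gene and 30.8% touching none. It was 31.0% with and 35.2% without Ctcf, and 38.0% with and 31.6% without Brg1 or Arid1a. By chromosome the ratio in chains lay between 0.523 (chromosome 14) and 0.667 (chromosome 15).

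**Figure D3:**
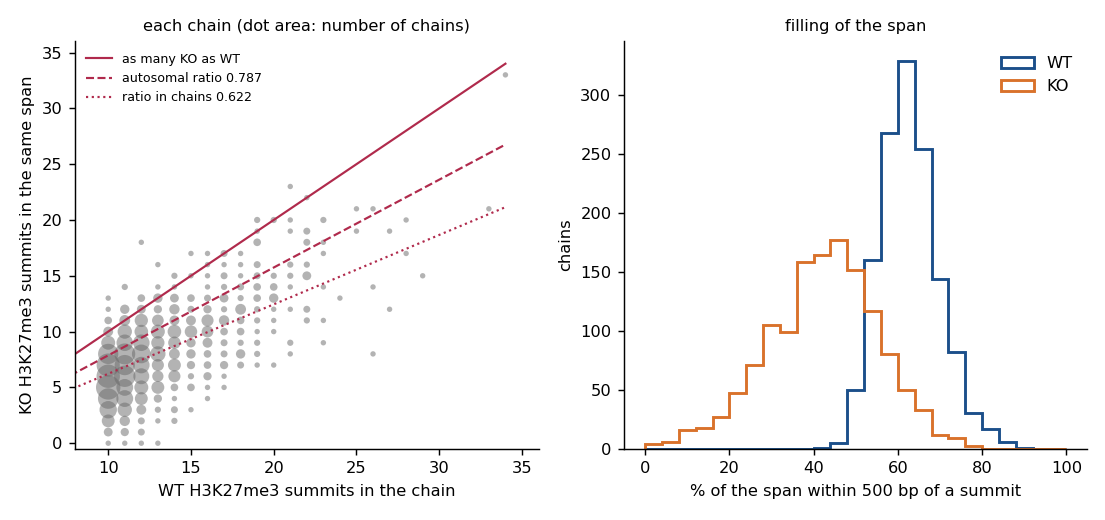
Left, KO against WT H3K27me3 summits in each chain (dot area grows with the number of chains), with lines at equal numbers, at the autosomal ratio of 0.787 and at the ratio in chains of 0.622. Right, number of chains by the percent of the span within 500 bp of a summit, for WT and KO cells. KO fill is centred near 42.9% and WT fill near 62.2%, and most dots lie under the line of equal numbers.

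As a chain complete in one genotype can be broken by a single wider gap in the other, whole chains were compared as well. Of the WT chains, 316 (23.5%) touched a KO chain of 10 or more summits, and 952 (70.7%) touched a KO chain of 5 or more. Only 4 had no KO summit at all, all of 10 to 13 WT summits. They lay at chr5:136625297-136645562 near Myl10, at chr7:136863933-136880391 near Mgmt, at chr6:118262517-118274438 near Ret and at chr16:23006621-23020519 in Kng2, a gene for kininogen, the plasma precursor of kinins. The neighbouring chain of Kng2 had 11 WT and 3 KO summits, and that of its paralog Kng1, which covered 96.2% of the gene, 17 and 11. The 2 spans in Kng2 were 51.0% and 63.2% soft-masked as repeats, and the part of repeats or of reads shared between the paralogs was not tested. The next 2 by ratio lay near Rplp1 and in Aqp9, the glycerol channel of hepatocytes, each with 12 WT and 1 KO summit. At the other end, the chain with the highest ratio lay 11766 bp from the start of Foxe1, a thyroid forkhead gene, with 12 WT and 18 KO summits. It was followed by the chain over Epx, the eosinophil peroxidase gene (10 and 13), by 2 chains in and beside Zfp423, a zinc finger gene of neural progenitors and fat cells (11 and 14 each), and by chains near Trim29 (13 and 16) and in Plch2, nearest the start of Pank4 (10 and 12).

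Chains lay over genes about as often as the autosomes do, and held coding starts at a share near that of the sequence they cover. Coding gene bodies took 45.4% of the span, against 41.4% of the autosomes. A coding start was present in 177 chains (13.1%; 11.4 to 15.1%), 475 (35.3%) lay wholly within 1 coding gene, and 597 (44.3%) touched none. The median distance to the nearest start was 21333 bp. Neither the share of chains with a start nor this distance was set against other spans of the same length. In all, 219 of 20807 autosomal coding starts lay in a chain, a share of 1.05%, near the 1.01% of sequence that chains cover. Bodies touched by a chain numbered 683 (3.28%), with a median length of 48.9 kb, against 17.6 kb for all coding genes. A WT H3K27me3 summit within 2 kb was found at 24.1% of coding starts.

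Gene lists that hold classical Polycomb targets mostly had WT H3K27me3 summits at more starts than the 24.1% of all coding genes. Few or no starts lay in chains, at counts near the 1.05% of all coding starts. The plot of 22 lists shows both shares. Of 96 homeobox genes outside Hox, 59 had a WT summit within 2 kb of the start, 1 start lay in a chain (Dbx2, a homeobox gene of the neural tube), and 4 bodies (4.17%) were touched. Of 19 Wnt ligand genes, 15 had a summit at the start, and of 38 lineage bHLH factors, 25, with no start or body in a chain in either list. The Sox (18 genes), Forkhead (41) and Fgf (20) families also had no body in a chain. At a background of 3.28% of bodies, a count of 0 in lists of these sizes lies near that share. Of 39 Hox genes, 10 (25.6%) had a summit at the start, near the share of all genes. No Hox start lay in a chain, and 1 body, Hoxd1, was reached by a chain of 18 WT and 16 KO summits. That chain lay 116 bp from the Hoxd1 start, covered 94.6% of the gene and had a highest strength of 25.5. A start counted as in a chain only inside its span, whereas a summit counted up to 2 kb away. Of 9 Pax genes, 4 had a summit at the start and 1 body, that of the B cell factor Pax5, was touched (11.1%) by a chain of 21 WT and 16 KO summits. Of 16 T-box genes, 10 had a summit at the start, 0 starts lay in chains, and 3 bodies (18.8%) were touched (T, Tbx5 and Tbx19). In Tbx19 a chain of 10 WT and 2 KO summits covered 48.5% of the gene and lay 276 bp from its start. Of 79 potassium channel genes, 59 had a summit at the start, 2 starts lay in chains and 6 bodies (7.59%) were touched. The lists give 1 base per peak, so whether a wide peak with 1 summit covers these starts was not measured.

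The listed genes with a start in a chain were 7. The chain at Dbx2 held 10 WT and 3 KO summits, and its highest strength was 20.6. That at Kcnt1, a sodium-activated potassium channel, held 10 and 2, with a highest value of 16.2. Kcnj1, the renal inward rectifier, lay to 82.8% in a chain of 16 WT and 11 KO summits. Of 30 Polycomb machinery genes, Phf19, a chromatin reader of PRC2, had 12 and 4 and Phc2, a PRC1 subunit, had 19 and 9. Of 14 cohesin and Ctcf genes, those reached were both germline forms: Rad21l, the meiotic kleisin, with 23 and 11, and Ctcfl, the testis paralog of Ctcf, with 19 and 14. The chain over Rad21l covered 92.8% of the gene and also held 3 Brg1, 3 Rad21 and 2 Ctcf summits. KO counts were lower than WT counts in all 7, which were chosen on WT summits. Chains covered much less of some other bodies: 0.389% of Kcnt1, 4.73% of Dbx2, 8.42% of Phf19, 17.8% of Phc2 and 41.4% of Ctcfl.

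Genes of hepatocyte function were reached through their bodies. Of 36 secreted and enzyme genes, 4 were touched (11.1%), against 3.28% of all coding gene bodies. They included Fga and Fgb, 2 fibrinogen chains, which shared 1 chain of 11 WT and 8 KO summits, and Cyp2e1, an ethanol-oxidizing P450 enzyme (12 and 6, over 90.1% of the gene). Of 20 hepatocyte transcription factors, 3 were touched. Prox1 held 22 WT and 15 KO summits over 53.0% of the gene, Onecut1 13 and 10, and Hnf4a 12 and 3 over 1.67%. Gata4 belongs to the separate list of 5 Gata genes and was the only 1 of them touched, by a chain of 11 WT and 1 KO summit. Like those of the 3 factors above, this chain was outside the naming rule given below. The list of 25 endothelial genes had 2 touched, Vwf (28 and 21 in 2 chains) and Cdh5. No body in the lists of 16 cell cycle brakes, 23 epithelial-mesenchymal transition genes, 28 SWI/SNF subunits, 75 ribosomal proteins and 57 clustered protocadherins was touched.

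**Figure D4:**
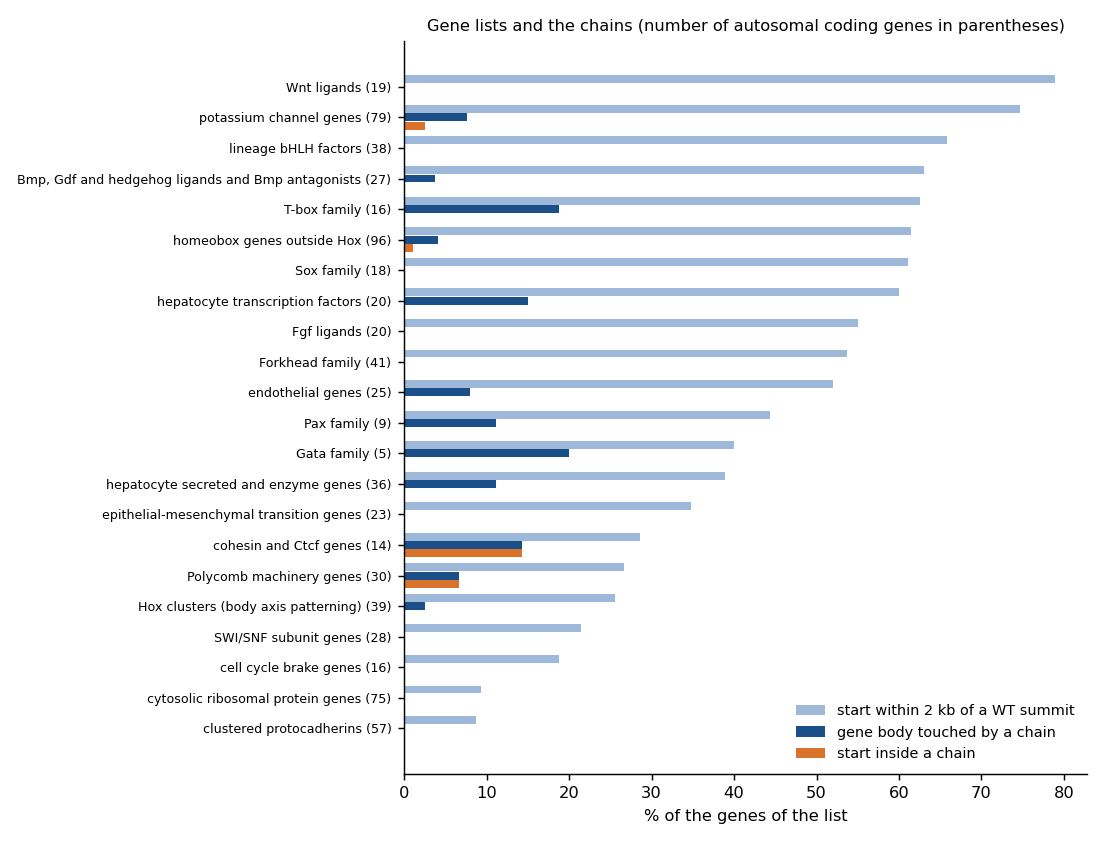
For each of 22 gene lists, the percent of genes with a WT H3K27me3 summit within 2 kb of the start, with a body touched by a chain, and with the start inside a chain. Over all autosomal coding genes these shares were 24.1%, 3.28% and 1.05%. Wnt ligands and potassium channels lead the first, and 4 lists have any start in a chain.

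Of the genes singled out by the study, none had its start in a chain. Cdh5, the endothelial cadherin, came nearest. Its start lay in a string of 9 WT and 4 KO summits, 1 short of the threshold, and a chain of 13 WT and 8 KO summits overlapped the far end of the gene. Gsc and Six2, homeobox genes, each had 1 isolated WT summit, 325 and 615 bp from the start. The nearest WT summits of the ubiquitin ligase gene Rnf125 were a pair 1646 bp away. Pmp22, a myelin protein gene, had its nearest summit 40737 bp away and Atg10, an autophagy gene, 335596 bp away. Their nearest chains were 78566 (Six2) to 3449086 bp (Atg10) from the start.

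The genes with the most sequence in chains were long, and they were picked after their values were seen. Fstl4, a follistatin-like secreted protein, had 142043 bp in 8 chains (33.5% of the gene). Gabbr2, a subunit of the GABA-B receptor, had 138433 bp in 7 chains (42.0%). Grik4, a kainate receptor subunit, had 117829 bp in 7 chains (27.6%). Next came D430041D05Rik, Hydin, a protein of motile cilia, Rbfox3, the neuronal splicing factor NeuN, Col23a1, a transmembrane collagen, and Dscaml1, a neuronal adhesion molecule, with 91587 to 78810 bp. The first 2 of these differed in KO filling. The 8 chains of Fstl4 held 12, 10, 21, 12, 20, 15, 10 and 12 WT summits and 3, 5, 9, 7, 13, 9, 4 and 4 KO summits. The 7 of Gabbr2 held 16, 12, 11, 17, 14, 10 and 12 WT summits and 11, 13, 10, 17, 11, 6 and 12 KO summits. In every chain of Fstl4 the KO count was at most 0.650 of the WT count, and in every chain but 1 of Gabbr2 it was at least 0.688, the other having 0.60. Over the gene the ratio was 0.482 in Fstl4 and 0.870 in Gabbr2.

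Chains covered at least 50% of the body in 201 coding genes, 58 of them of 20 kb or more. The latter included Pou2f3, the tuft cell factor (61.4%; 37 WT and 21 KO summits), Cass4 (83.4%; 24 and 17), Tmprss13, a membrane protease (85.2%; 35 and 26), Slc6a5, the neuronal glycine transporter (50.1%; 21 and 19), and Spi1, the myeloid factor PU.1 (51.4%; 14 and 2). In 5 gene families listed after the values were seen, bodies touched numbered 6 of 9 for voltage-gated calcium channel alpha-1 genes, 6 of 23 for cadherins, 5 of 42 for collagens, 3 of 25 for glutamate receptors and 3 of 18 for GABA receptors. These families are long, with median lengths of 89.6 to 319 kb, and of all 2372 coding genes of 100 kb or more, 203 (8.56%) were touched.

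The second question was what lies at the edges and inside. An edge is the first or last WT summit of a chain, which gave 2694 edges. Ctcf lay within 3 kb of 656 edges (24.4%; 22.7 to 26.0%) and Rad21 of 676 (25.1%; 23.5 to 26.8%). Bases within 3 kb of a Ctcf summit made up 15.3% of the autosomes, and those within 3 kb of a Rad21 summit 16.6%. WT H3K27me3 summits outside the chains had Ctcf within 3 kb in 26.4% and Rad21 in 26.9% of cases, slightly more than edges had. Edges were thus not richer in either protein than other H3K27me3 summits. Ctcf was at both edges of 101 chains (7.50%), at 1 edge of 454 and at neither of 792. For Rad21 the numbers were 108, 460 and 779.

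Across the edge, both proteins fell. Ctcf had 60.9 to 68.9 summits per Mb in the 2 kb steps outside, with 67.7 (61.0 to 75.1) in the step next to the edge, and 53.3 (47.3 to 59.8) in the first step inside. Rad21 had 78.3 (71.0 to 86.2) in the last step outside and 52.0 (46.1 to 58.4) in the first inside. Among summits whose strength reached 5, the step next to the edge on the outside was the densest for both proteins. Ctcf had 35.4 (30.6 to 40.8) there, 22.8 to 31.6 further out and 19.9 (16.3 to 24.0) just inside. Rad21 had 28.0 (23.7 to 32.9), 16.5 to 21.5 and 15.2 (12.1 to 18.9). More than 3 kb inside both edges, Ctcf had 808 summits in 16.2 Mb, 1.34 times the autosomal density (1.25 to 1.43), though in chains with gaps of at most 2 kb it was 0.913 times (0.663 to 1.23). Rad21 had 858 (1.27 times; 1.18 to 1.35). From 3 to 23 kb outside the edges the ratios were 1.69 and 1.56. The chains thus lay in regions rich in Ctcf and Rad21 and, over all summits, held less of both than their surroundings. With summits whose strength reached 5, the inside ratios were 1.49 for Ctcf and 1.53 for Rad21. The flank ratio was 1.72 for each. At that strength the intervals of the densities inside and in the flanks overlapped. They were 20.4 to 25.1 and 24.9 to 27.6 per Mb for Ctcf, and 14.7 to 18.7 and 17.5 to 19.8 for Rad21. WT H3K27me3 was itself 6.23 to 7.08 times its autosomal density from 4 to 20 kb outside, and KO H3K27me3 7.0 times in the flanks and 12.7 times inside, so the chains were crests within wider marked regions. The absence of WT H3K27me3 summits next to the outside of an edge is set by the choice of chains. The Ctcf and Rad21 densities in that step are thus those of gaps chosen to lack WT H3K27me3 summits. Other such gaps were not measured.

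**Figure D5:**
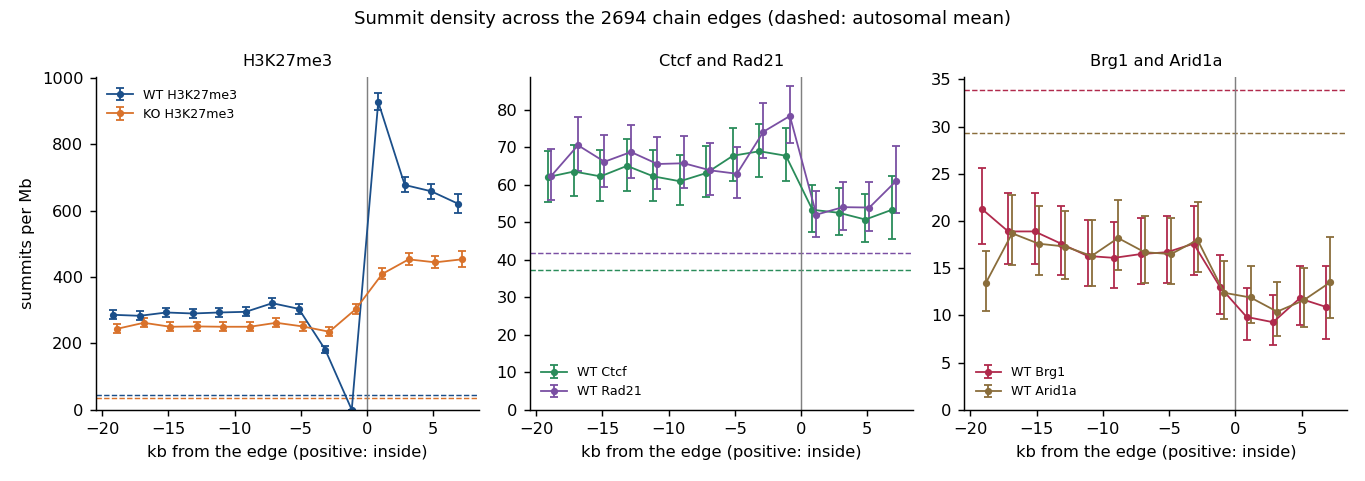
Summits per Mb in 2 kb steps from 20 kb outside to 8 kb inside the 2694 chain edges, for H3K27me3 in WT and KO cells (left), Ctcf and Rad21 (middle) and Brg1 and Arid1a (right), with exact 95% Poisson intervals. Dashed lines are autosomal means. Ctcf and Rad21 fall from 67.7 and 78.3 just outside to 53.3 and 52.0 just inside, and Brg1 and Arid1a stay under their means throughout.

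The Ctcf core was about as frequent at edge sites as at Ctcf summits in general, and the sites shown next were picked among those that carry it. Shown are 101 bases around the 4 strongest Ctcf summits, among those with the core, within 3 kb of an edge of a chain of 20 or more WT summits. Capitals mark a match to the Ctcf core CCANNAGNNGGC on either strand, and the bases are those of the plus strand of mm10 (GRCm38, RefSeq).
Ctcf edge site near Sephs1, chr2:4864675-4864775: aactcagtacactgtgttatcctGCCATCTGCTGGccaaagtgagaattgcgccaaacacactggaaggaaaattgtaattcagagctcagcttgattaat
Ctcf edge site near Usp30, chr5:114052266-114052366: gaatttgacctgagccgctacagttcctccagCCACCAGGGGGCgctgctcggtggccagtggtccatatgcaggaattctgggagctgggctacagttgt
Ctcf edge site by Prom1, chr5:44048689-44048789: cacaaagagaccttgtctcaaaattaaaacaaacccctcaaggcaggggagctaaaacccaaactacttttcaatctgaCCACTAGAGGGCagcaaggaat
Ctcf edge site in Slc6a5, chr7:49923598-49923698: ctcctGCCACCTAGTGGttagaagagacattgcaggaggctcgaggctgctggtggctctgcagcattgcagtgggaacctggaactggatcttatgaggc

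These 4 sites had strengths of 83.3, 59.7, 54.0 and 51.2. They lay 2087, 2355, 349 and 1053 bp from the edge, each on the outside, and each had a Rad21 summit within 90 bp. The chains they flanked held 21, 21, 25 and 21 WT and 15, 12, 19 and 19 KO summits. The core was present within 50 bp of 16.4% of the 979 Ctcf summits near an edge (14.2 to 18.9%), of 14.6% of the 1238 in chains and of 14.4% of all 89238. It was present at 0.754% of the WT H3K27me3 summits in chains. Ctcf summits in and out of chains also had the same median strength (4.02). Of the 1284 Rad21 summits in chains, 54.2% had Ctcf within 1 kb (51.4 to 57%), against 51.7% outside.

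The subunits of SWI/SNF were sparse. Brg1 lay within 3 kb of 182 edges (6.76%; 5.84 to 7.77%), against 15.3% of autosomal bases, 8.74% of other WT H3K27me3 summits and 45.1% of coding starts. Arid1a lay near 179 edges (6.64%), against 13.9%, 8.69% and 40.5%. Inside the chains Brg1 had 158 summits, 0.287 times its autosomal density (0.244 to 0.336), and Arid1a 185, 0.389 times (0.335 to 0.450). Both were also under the mean in the flanks (0.542 and 0.599 times). Brg1 had 0 summits in 1159 chains (86.0%) and Arid1a in 1123 (83.4%). Neither protein, nor Ctcf nor Rad21, had a summit in 473 chains (35.1%). Of the 234 Brg1 summits in chains, 19 (8.12%; 4.96 to 12.4%) had Arid1a within 1 kb, against 27.6% of those outside, and 5.13% lay within 2 kb of a coding start, against 14.1%. The share with Ctcf within 1 kb was 20.5% inside and 21% outside. The share with Rad21 within 1 kb was lower inside, 16.2% (11.8 to 21.6%) against 27.5%. Brg1 summits were weak in both places, with a median strength of 2.56 in each.

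The chains with the most Ctcf, Rad21 or Brg1 ranged from 10 to 29 WT summits. One near Myl2, the slow muscle myosin light chain, had 9 Ctcf and 5 Rad21 summits with 10 WT and 6 KO H3K27me3 summits. One near Mc3r, a melanocortin receptor, had 8 and 8 (11 WT and 6 KO). One over Pla2g5, a secreted phospholipase, had 7 and 9 (12 and 11). A chain near Prlhr, the receptor of prolactin-releasing peptide, was in the first 6 for all 3 proteins, with 6 Ctcf, 7 Rad21 and 3 Brg1 summits, beside 4 of Arid1a (22 and 16). Chains near Tmem92 and in Slc52a3, a riboflavin transporter, each had 6 Ctcf summits. The chain at 1700021F07Rik had the most Rad21 (11) with 4 Ctcf, and those near Dact2, a regulator of Wnt signalling, and Gm11733 had 9 and 8 Rad21. The highest Brg1 count was 3. Chains that reached it lay near Neurl1b, Prlhr and Cndp2, over Rad21l, and in Ddx39b (10 WT and 1 KO summit).

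H3K9me3, the mark of constitutive heterochromatin, was not denser inside the chains than over the autosomes. Inside the chains WT H3K9me3 had 0.904 times its autosomal density (0.845 to 0.967) and KO H3K9me3 0.728 times (0.673 to 0.786). In the flanks the values were 1.22 and 1.05. It lay within 3 kb of 27.8% of edges in WT and 22.6% in KO cells, against 24.2% and 23% of autosomal bases.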

How the data were processed

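Per the labels and the study's methods, the authors sequenced the libraries on an Illumina HiSeq instrument, aligned them to mm10 with Bowtie2, dropped poor reads (SAMtools) and PCR copies (Picard), and ran MACS2 against the matching input; versions were not given in the sources used here. The deposited lists give 1 summit per peak with its −log10 q-value from the authors' peak calling, a unit read from the values. Narrow-peak calling splits a broad mark into strings of summits, and peak widths were not used here. Sample titles gave the genotype and the antibody.

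Summits on 19 autosomes were used in 1-based mm10 coordinates, of which 0 lay beyond a chromosome end in GRCm38. Gene positions were those of 20807 protein-coding genes (GENCODE M21), with the outermost start of each. Soft-masked bases of the RefSeq GRCm38 sequence stood for repeats. Shares have Clopper-Pearson intervals, ratios intervals from the binomial share, and densities exact Poisson intervals, at 95%. Python 3.11.15, NumPy 2.4.6, pandas 2.3.3 and SciPy 1.17.1 were used, and the counting was tested on simulated lists. Chains named were the 12 with the most WT summits, the 6 lowest and 6 highest by KO to WT ratio, the 6 with the most Ctcf, Rad21 and Brg1, and those with a start of a listed gene. Ties went to more WT summits, then position. Chains named only because they touch the body of a listed gene, such as those of Prox1 and Gata4, were outside this rule. A few of the genes this rule names are not reported here. The chain rule and the gene lists were chosen with earlier results of these data known. Alternatives were another gap, number of summits, threshold, fill distance and edge width.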

Additional observations from a re-analysis of the deposited data

How the results depend on the processing

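No paired analysis was possible because each group was 1 library, and for the same reason no replicate could be left out. Of 76 alternative values, 27 stayed within the counting interval (for the number of chains, within 1.5 times; for the fill, an interval over whole kb of span), 47 moved beyond it and 2 changed direction. Leaving out chains over 50% soft-masked (1310 left) moved none.

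With gaps of at most 2 kb there were 204 chains, the KO to WT ratio was 0.524, the KO fill 45.6%, edges with Ctcf 21.3% and with Rad21 22.3%, Rad21 inside 1.05 times the autosomal density, and Ctcf inside turned to 0.913 times. With gaps of 5 kb the values were 2871 chains, 24.8% with a coding start, 0.705, 37.9%, and 26.7%, 26.8% and 8.31% of edges with Ctcf, Rad21 and Brg1, with Ctcf 1.56 and Rad21 1.41 times inside. With 20 or more summits there were 71 chains, 18.3% with a start, a ratio of 0.684, a fill of 43.9%, Ctcf at 20.4% of edges, and Ctcf 1.11 and Rad21 1.16 times inside. With WT summits of −log10 q-value of at least 2.5 there were 100 chains, a ratio of 0.791 (autosomal 1.54), a fill of 47.9%, Ctcf and Rad21 at 22.5% and 27.5% of edges, and Rad21 1.41 and Brg1 0.378 times inside. With the WT list cut to the KO number there were 649 chains, a ratio of 0.697 and a fill of 45.5%.

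Chains chosen on KO summits reversed the KO to WT ratio to 1.48, with 46.8% of their span filled by WT. Counting fill to 1 kb gave 67.8%. With summits of at least 5 in both genotypes the ratio was 0.524 (autosomal 0.818). Edge windows of 1 kb held Ctcf, Rad21 and Brg1 in 10.3%, 11.5% and 2.19% (autosomal bases 6.66%, 7.35% and 6.23%), and windows of 10 kb in 52.1%, 53.3% and 19.5% (34.1%, 36.2% and 34.5%). With factor summits of at least 5, edges held 14.9%, 11.2% and 0.111%, and the inside values were 1.49, 1.53 and 0.185 times. The causes were not tested. In none of these settings was Brg1 at or above its autosomal density inside the chains.

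Unknown read depth limits every count: a shallower list breaks chains, and 1 line with 1 library per group gives no spread between samples.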
